A study of Mus musculus with 4 samples.

Results

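The targets of miR-199 and miR-214 were read from Ago2 chimeric eCLIP of overloaded mouse plantaris muscle. In this assay the miRNA and the RNA it is paired with in Argonaute2 are ligated into 1 chimeric read, so that each target peak carries the name of the miRNA that was joined to it. All lines named mmu-miR-199a-3p, mmu-miR-199b-3p, mmu-miR-199a-5p or mmu-miR-214-3p in the peak lists of both libraries were taken. The first 2 names were pooled as miR-199-3p. They made up 7907 of 194365 lines, with 3916 of 93468 in the control library and 3991 of 100897 in the mimic library. Lines were chosen by the miRNA name alone, and these 4 names were selected on the chimeric reads that earlier results of the same data had shown on matrix genes, so that what follows on matrix genes is a description without a test. A line was assigned to the gene whose GRCm38 span it overlapped on the same strand. Where there was none, a gene of unknown strand was used, such as the ribosomal RNA locus Rn18s-rs5.

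Both libraries came from the plantaris of male C57BL/6J mice aged 5 months, 10 days after mechanical overload (MOV) by synergist ablation. The MOV control had received a lentivirus with a scramble control sequence in the left plantaris, and the MOV mimic a lentivirus with a miR-1 mimic (miR-1a-3p) in the right plantaris, each driven by a mouse CMV promoter with Turbo-GFP as reporter. Muscle was homogenised whole, so that the libraries hold RNA of fibres and of all cells between them. There was 1 library per group, and the libraries of input RNA were not analysed here. No difference between control and mimic was therefore tested. The intervals given are exact 95% intervals that cover counting error only, and values are given as control first and mimic second.

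miR-199 and miR-214 are best known from mesenchymal cells. The genes of miR-199a-2 and miR-214 lie in 1 long noncoding RNA, Dnm3os, on the opposite strand of Dnm3, while miR-199a-1 and miR-199b lie opposite Dnm2 and Dnm1. In development Dnm3os is transcribed in mesenchyme, and in adult tissue these miRNAs are known for their abundance in fibroblasts and their increase in fibrosis. A miRNA recognises its targets mainly by its seed, bases 2 to 8, and loaded Argonaute then lowers the stability and translation of the target.

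The mature sequences are shown because all pairing described below depends on them, with the seed in capitals (RefSeq, GRCm38.p6).
miR-199a-3p: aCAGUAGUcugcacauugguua
miR-199b-3p: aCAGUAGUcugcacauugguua
miR-199a-5p: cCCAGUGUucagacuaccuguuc
miR-214-3p: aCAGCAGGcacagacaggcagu
miR-199a-3p and miR-199b-3p are the same molecule in sequence. The control peak list used only the name miR-199b-3p (1710 lines and none as miR-199a-3p), and the mimic list used only miR-199a-3p (1708 lines and none as miR-199b-3p). The seeds of miR-199-3p and miR-214-3p differ at 2 of 7 bases, those of miR-199-3p and miR-199a-5p at 4, and those of miR-199a-5p and miR-214-3p at 5. The seed of miR-214-3p is shared with miR-761.

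Target sites with a complementary match to the seed (capitals) were sought in the longest transcript of each gene, as annotated in GENCODE M1 for an older build (mm9). Those below are from genes with a peak of at least 5 reads of the respective miRNA in both libraries. Each is in the part of the gene where the peak lies, measured from the same gene end, except for the site of Fn1, which ends short of its peak.
Pnrc1, miR-199-3p: caatttccttatgtACTACTGa
Klf13, miR-199-3p: gcacagtccagcttACTACTGa
Cpeb4, miR-199-3p: aattgggtgactttACTACTGa
Fn1, miR-199-3p: catgccaacgctttACTACTGt
Sos2, miR-199a-5p: atatgtagtcattgACACTGGa
Thbs4, miR-214-3p: gcggccgccttcctCCTGCTGc
The Pnrc1 peak spanned 185 to 305 nt from the 3′ end of the gene, with the site at 238 to 244 nt. The Sos2 peak spanned 1259 to 1363 nt with the site at 1333 to 1339 nt. The Fn1 peak lay 73 to 134 nt from the end and its site at 38 to 44 nt. Because the gene ends of the 2 annotations can differ, these positions are approximate.

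The 3 miRNAs were of middling abundance among the miRNAs of whole overloaded muscle. miR-199-3p had 1710 and 1708 peaks with 3230 (3120 to 3343) and 2935 (2830 to 3043) chimeric reads, and ranked 17 and 20 by reads among 560 miRNAs in each library. miR-214-3p had 1481 and 1517 peaks with 2311 (2218 to 2407) and 2567 (2469 to 2668) reads, and ranked 22 in both. miR-199a-5p had 725 and 766 peaks with 1657 (1578 to 1739) and 1795 (1713 to 1880) reads, and ranked 26 and 27. Together they held 3.10% and 2.82% of the 232408 and 259207 chimeric reads, although 16.4% and 15.96% of the 20754 and 21872 peak positions carried at least 1 of them. The remaining arms of the same hairpins were scarcer, with 237 and 257 reads for miR-199b-5p and 49.4 and 43.8 for miR-214-5p.

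Most peaks of these miRNAs were small. The median peak of miR-199-3p held 0.928 and 0.857 reads, and the 210 and 183 peaks of at least 3 reads held 58.5% and 55.7% of its reads. Values below 1 occur because the deposited read numbers are fractional. The miR-199-3p reads were spread over 1118 and 1109 genes, of which 79 and 73 sufficed for 50% of the reads. Those of miR-214-3p were spread over 986 and 1049 genes, with 92 and 99 for 50%. miR-199a-5p stood apart, since only 2 of its 511 and 538 genes, H19 and the ribosomal RNA locus, made up 50% of its reads in each library. Reads were not divided by gene length, so an order of genes is an order of reads recovered, not of transcript levels.

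Of all genes, the ribosomal RNA locus Rn18s-rs5 had the most miR-199-3p reads (208.8 and 189.4), and Col1a2, ND1 and Postn came next. The matrix genes are described first. On Col1a2, which encodes a chain of type I collagen, it had 123 and 119 reads (ratio of mimic to control 0.965, 0.746 to 1.26), or 13.3% and 12.5% of the reads of all miRNAs on that gene. Its single largest Col1a2 peak, at chr6:4538628-4538726, held 91.7 and 79.7 reads, and it was the leading miRNA there with 57.9% and 49.3% of the 158 and 162 reads. On Postn, periostin, a matricellular protein made by activated fibroblasts, the peak at chr3:54369149-54369253 held 83.6 and 67.0 reads, of which miR-199-3p made up 84.0% and 83.9% of all reads in the peak. Over the whole gene it had 100.1 and 71.1 reads on Postn (ratio 0.710, 0.516 to 0.972), beside a ratio of 0.786 for the reads of all miRNAs on Postn. Thus both major matrix targets carried these reads in both libraries, and the lower mimic value on Postn was shared by the other miRNAs of that gene.

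Beside further matrix genes, miR-199-3p led peaks on genes of other functions. Tmsb4x, the actin-sequestering thymosin beta 4, had a peak at chrX:167207294-167207384 with 44.5 and 40.3 reads, and 92.2% and 83.3% of all reads there were of miR-199-3p. Fn1, fibronectin, had a peak at chr1:71585546-71585607 with 42.4 and 39.8 reads (77.4% and 71.9% of the peak). Pnrc1, a nuclear receptor coactivator, had its peak at chr4:33245608-33245728 with 41.3 and 38.1 reads (61.0% and 52.0%). These peaks were led by miR-199-3p in both libraries, and each differed between libraries by less than counting error. Emp1, an epithelial membrane protein, had 25.7 and 17.5 reads in its peak. Hyou1, a chaperone of the endoplasmic reticulum, had 16.1 and 12.7 reads, and 91.6% and 92.9% of all reads in that peak (chr9:44391829-44391926) were of miR-199-3p. Cd44, the hyaluronan receptor and a known target of this miRNA, had 19.4 reads in each library over 3 peaks in each, which was 27.7% and 27.3% of all reads on the gene.

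A different kind of peak drew miR-199-3p reads without being led by it. At ND1, a mitochondrial gene of respiratory complex I, it had 87.4 and 98.1 reads, which were only 2.29% and 1.85% of 3816 and 5306 reads in a peak led by miR-1a-3p. At the ribosomal RNA locus Rn18s-rs5 its largest peak held 74.3 and 79.0 reads, 2.14% and 1.97% of a peak led by miR-133a-3p. On Ttn, the giant sarcomere protein titin, its 43.5 and 50.4 reads were 0.248% and 0.214% of the reads of all miRNAs on the gene. The Col1a1 peak with 12.7 and 26.7 reads belonged here too, since miR-199-3p made up 1.40% and 2.49% of a peak led by miR-133a-3p. In all, 6.40% and 8.12% of miR-199-3p reads lay on the mitochondrial chromosome and 6.46% and 6.45% on ribosomal RNA. Large read numbers thus occurred both at peaks that miR-199-3p led and at peaks where it was a minor part of a much larger signal.

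Of the reads of miR-214-3p, 5.90% and 4.23% lay on the ribosomal RNA locus Rn18s-rs5. Outside that locus miR-214-3p had its strongest target in Sparc, the collagen-binding matricellular protein osteonectin. It had 127.7 and 123.0 reads on Sparc (ratio 0.963, 0.744 to 1.24), which was 27.7% and 24.6% of the reads of all miRNAs on that gene and 5.52% and 4.79% of all miR-214-3p reads. The reads lay mainly in a peak at chr11:55419781-55419863, with 89.0 and 87.6 reads (74.7% and 68.2% of the peak), and in another at chr11:55399250-55399326, with 31.6 and 29.2 reads (72.3% and 55.0%). Both peaks were led by miR-214-3p in both libraries. The longest Sparc transcript held 2 seed matches, shown here because Sparc is the main target of this miRNA outside ribosomal RNA. The first was in the 5′ UTR at base 188 and the second in the 3′ UTR at base 1226. Neither was compared in position with the Sparc peaks.
Sparc, 5′ UTR: gctccaagaggcttCCTGCTGc
Sparc, 3′ UTR: ctaagttcacgcctCCTGCTGc

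Rhob, a small GTPase of the actin cytoskeleton, was almost wholly a miR-214-3p target at its peak (chr12:8498859-8498948). That peak held 30.2 and 36.0 reads, 96.8% and 100% of all reads there. Timp2, an inhibitor of matrix metalloproteinases, had 27.5 and 29.2 reads at chr11:118301863-118301989 (73.6% and 84.1%). Bgn, the proteoglycan biglycan, had 25.8 and 21.8 reads at chrX:73495361-73495547 (36.5% and 39.8%), where miR-214-3p still led. Malat1, a nuclear long noncoding RNA, had 31.7 and 29.9 reads at chr19:5797776-5797876. Among genes not of the matrix, Atp2a2, the calcium pump SERCA2 of slow fibres and other cells, had 12.0 and 12.5 reads in a peak of which miR-214-3p made up 98.4% and 93.2%. A peak with no gene on its strand, at chr7:44478680-44478776, held 19.5 and 19.7 miR-214-3p reads.

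**Figure D1:**
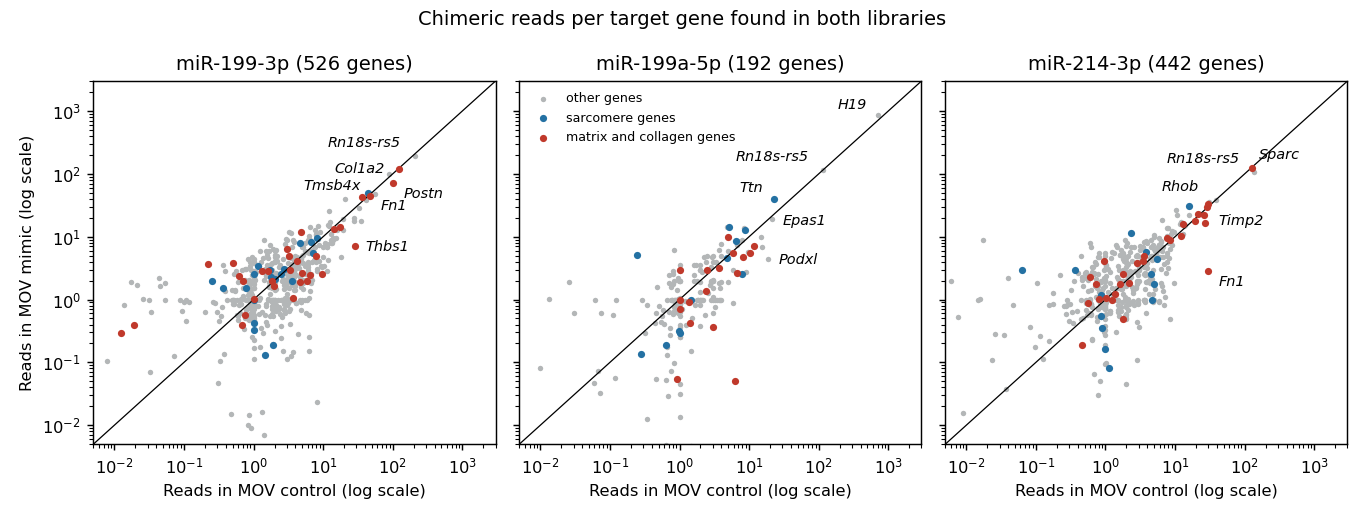
Chimeric reads per target gene in the MOV control (x axis, log scale) and MOV mimic (y axis, log scale), 1 panel per miRNA and 1 point per gene found in both libraries (526, 192 and 442 genes). Most genes with many reads lie near the diagonal, with exceptions such as Fn1 for miR-214-3p (29.6 and 2.80) and Podxl for miR-199a-5p (18.4 and 4.46), H19 is far above all other genes of miR-199a-5p with 716 and 874 reads, and the scatter widens below about 3 reads.

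miR-199a-5p was mostly recovered on H19, the imprinted long noncoding RNA of embryonic and regenerating muscle. It had 716 and 874 reads on H19, which were 43.2% and 48.7% of all its reads and 15.6% and 15.5% of the 4582 and 5627 reads of all miRNAs on H19. Only miR-130a-3p had more reads there, with 1296 and 1717, or 88.9% and 91.7% of its own reads. The miR-199a-5p reads lay in 2 neighbouring peaks, 1 at chr7:142575787-142575858 with 429.9 and 533.5 reads, led by miR-130a-3p, and 1 at chr7:142575741-142575779 with 220.5 and 335.9 reads, led by miR-199a-5p with 42.1% and 40.2% of the peak. In the control a further peak of 7 nt between them held 61.7 reads. These peaks lay between 211 and 328 nt from the 3′ end of a gene of 2617 nt. miR-199b-5p had 70.1 and 115.1 reads on H19, which was 29.6% and 44.7% of its reads. The ratio of mimic to control was 1.22 (1.105 to 1.35) for miR-199a-5p on H19 and 1.23 (1.18 to 1.28) for all miRNAs on H19.

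**Figure D2:**
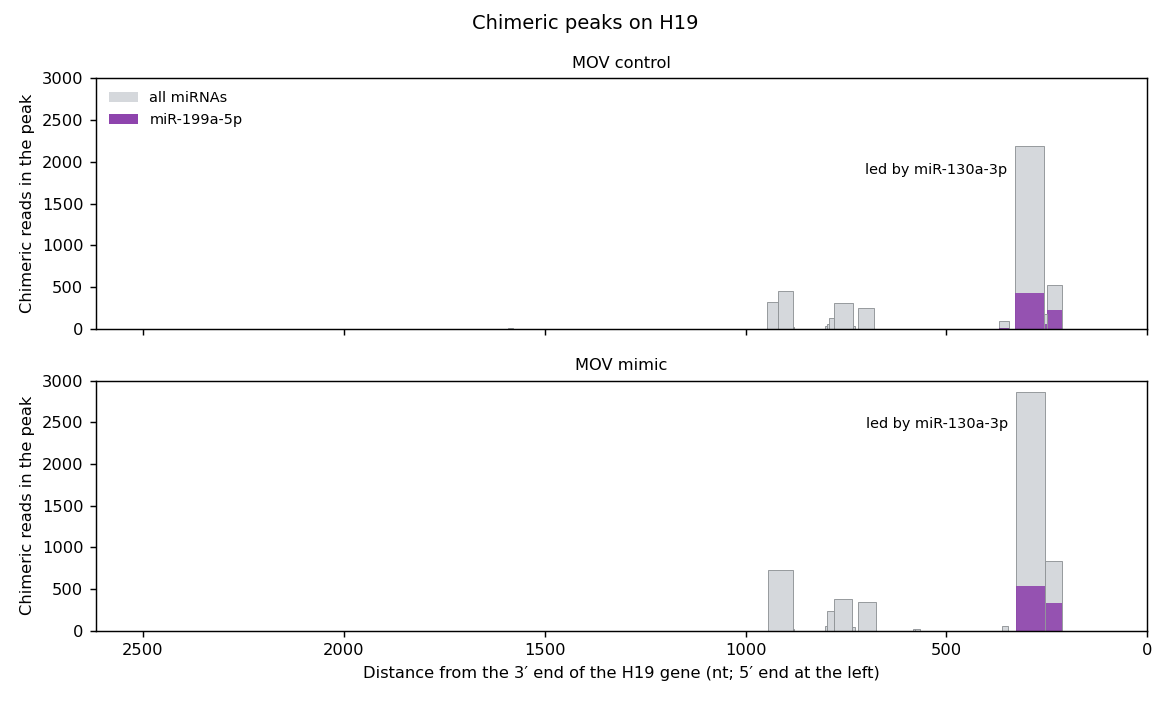
Chimeric reads in each H19 peak (y axis) by distance from the 3′ end of the gene in nt (x axis), with the MOV control above and the MOV mimic below, grey for all miRNAs and purple for miR-199a-5p. The miR-199a-5p reads lie in a few neighbouring peaks between 211 and 328 nt, where they make up a part of the largest H19 peaks.

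Outside H19 miR-199a-5p had 941 and 921 reads. Of these Epas1, the hypoxia-inducible transcription factor HIF-2 alpha, had 21.02 and 18.8 at chr17:86832810-86832904, where miR-199a-5p made up 75.3% and 83.0% of the peak. Huwe1, a large ubiquitin ligase, had 8.55 and 13.5 reads at chrX:151891085-151891175 (90.2% and 77.2%). Zfp91, a zinc finger protein, had 7.97 and 9 reads (88.9% and 100%). Xirp2, an actin-binding protein of striated muscle, had 8.67 and 12.6 reads at chr2:67515338-67515421, and Sos2, an exchange factor that activates Ras, 6.85 and 8.45 at chr12:69585020-69585124. Txnl1, a thioredoxin-like protein, had 14.8 and 10.0 reads in a peak led by miR-26a-5p. Rn18s-rs5 had 115.9 and 114.1 reads and Ttn 22.6 and 39.4 (ratio 1.74, 0.988 to 2.97). The peaks that miR-199a-5p led outside H19 were small beside those on H19.

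Extracellular matrix genes took a larger share of the reads of miR-199-3p and miR-214-3p than of the other miRNAs as a whole. Of the reads of miR-199-3p, 14.04% (12.9 to 15.3) and 13.4% (12.2 to 14.7) lay on a list of 74 collagen and other matrix genes. For miR-214-3p the shares were 16.8% (15.3 to 18.4) and 13.9% (12.6 to 15.3), and for miR-199a-5p 5.29% (4.28 to 6.50) and 3.04% (2.32 to 3.97). All other miRNAs together had 4.67% and 3.92%. Among the 44 miRNAs that had 500 or more peaks in both libraries, miR-214-3p was 3 and 4 in order of this share, miR-199-3p 6 and 5, and miR-199a-5p 20 and 26, with a median of 4.60% and 3.64% over the 44. The miR-29 family, long known for collagen targets, had 18.2% and 16.5%, and miR-1a-3p, the miRNA of muscle fibres, 2.44% and 2.13%. Differences of these shares between the libraries were not tested. The number of fibroblasts and the matrix RNA per fibroblast cannot be told apart in homogenised muscle.

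The 2 miRNAs divided the matrix list differently. On collagens lay 6.73% and 7.48% of the reads of miR-199-3p and 3.92% and 3.87% of those of miR-214-3p, beside 2.28% and 2.04% for all other miRNAs. On the non-collagen matrix genes lay 7.31% and 5.94% for miR-199-3p and 12.8% and 10.0% for miR-214-3p, beside 2.40% and 1.88%. Sparc made up much of the latter, and without Sparc the matrix share of miR-214-3p was 11.9% and 9.55%. On the whole list, 43 and 41 genes had a miR-199-3p peak (32 in both libraries), 40 and 35 a miR-214-3p peak (28 in both) and 28 and 21 a miR-199a-5p peak (17 in both). These counts did not set the 3 miRNAs apart. On the same list miR-133a-3p had peaks on 44 and 50 genes (39 in both) and miR-1a-3p on 37 and 43 (34 in both).

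Several fibrillar collagens carried reads of all 3 miRNAs. On Col3a1, which encodes type III collagen, miR-199-3p had 14.5 and 13.3 reads, miR-214-3p 12.3 and 10.1, and miR-199a-5p 11.8 and 7.22. On Col1a1, type I collagen, miR-199-3p had 35.6 and 43.0 reads, miR-214-3p 19.1 and 18.0, and miR-199a-5p 4.96 and 9.79. Col5a1, which encodes a type V chain that regulates fibril width, had 17.3 and 14.3 reads of miR-199-3p and 12.8 and 15.8 of miR-214-3p. All these values were of like size in both libraries or too low for a difference to be detectable at this depth. Serpinh1, the collagen chaperone HSP47, had 6.23 and 0.0506 reads of miR-199a-5p.

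**Figure D3:**
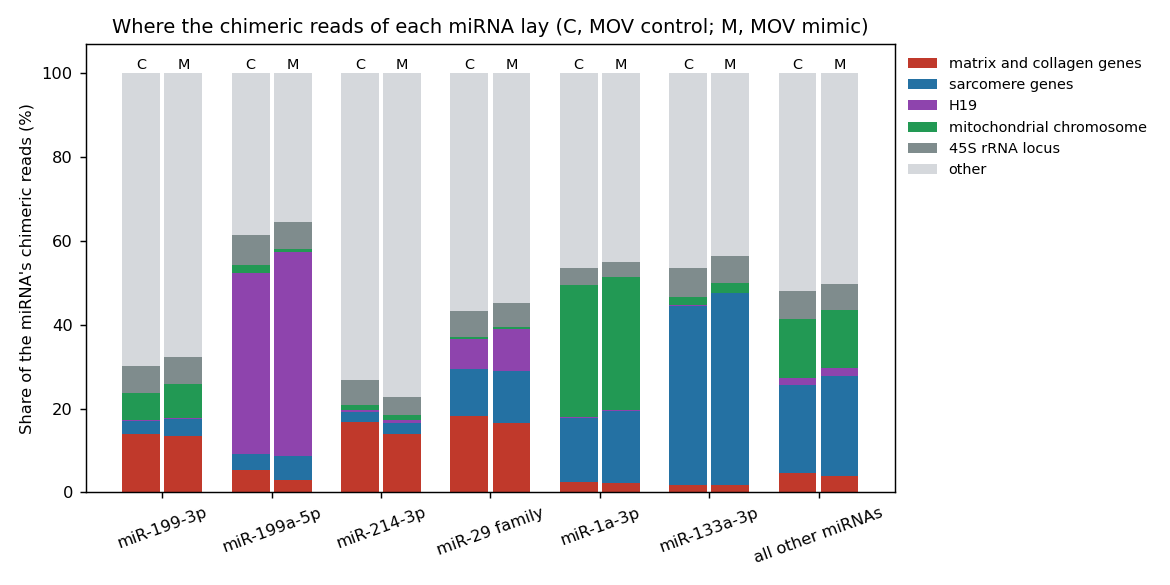
Share of the chimeric reads of each miRNA or group of miRNAs (y axis, percent) that lay on each class of genes, in the MOV control (C) and MOV mimic (M), drawn as stacked bars that start at 0. miR-199-3p and miR-214-3p show wide matrix segments (13.4% to 16.8%) and narrow sarcomere segments (2.44% to 4.03%), and miR-199a-5p shows a large H19 segment (43.2% and 48.7%).

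Sarcomere genes showed the opposite picture. They took 3.06% and 4.03% of the reads of miR-199-3p, 3.91% and 5.62% of those of miR-199a-5p and 2.44% and 2.77% of those of miR-214-3p, beside 21.02% and 23.9% for all other miRNAs. In the order of 44 miRNAs from the highest share, miR-199-3p was 38 and 39, miR-199a-5p 36 and 36 and miR-214-3p 42 and 41. The median over the 44 was 11.03% and 14.05%, below the value of all other miRNAs together. Low shares were not particular to these 3 miRNAs, since miR-195a-5p was lowest with 1.33% and 1.66%. miR-133a-3p, the other main miRNA of muscle fibres, had 42.8% and 45.8%. Without H19, the matrix share of miR-199a-5p was 9.32% and 5.93%, so its place in the matrix order rests on whether H19 is counted.

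The description of these miRNAs as fibroblast miRNAs was checked against marker lists of the cells that muscle holds. On 17 fibroblast markers lay 9.17% and 8.89% of the reads of miR-199-3p, 3.87% and 3.23% of miR-214-3p and 2.51% and 1.64% of miR-199a-5p, beside 2.22% and 1.91% of all other miRNAs. The miR-29 family had more than any of the 3, with 10.97% and 9.86%. However, 8 of these markers are also matrix genes. On the 9 that are not (Pdgfra, Thy1, Gsn, Dpt, Tcf4, Ly6a, Cd34, Pi16 and Clec3b) miR-199-3p had 19.1 and 9.55 reads, or 0.592% (0.355 to 0.917) and 0.325% (0.164 to 0.626), miR-214-3p 7.57 and 7.67 reads, or 0.328% and 0.299%, and miR-199a-5p 1.93 and 0.404 reads, or 0.116% and 0.0225%. All other miRNAs had 0.129% and 0.120% on these 9 genes. Most of the miR-199-3p reads there were on Gsn, gelsolin (18.1 and 4.76), and without Gsn it had 1.05 and 4.79 reads, or 0.0324% and 0.163%, beside 0.0946% and 0.0898% for all other miRNAs (a comparison added after seeing the data). The miR-214-3p shares without Gsn were 0.328% and 0.230%, above those of all other miRNAs in both libraries but on only 7.57 and 5.90 reads. The defining markers Thy1 and Clec3b had no peak of any of the 3 miRNAs in either library, while all 17 markers had peaks of some other miRNA. A gene without a peak of a miRNA may lack a site for it, so these counts do not measure the cells. The higher share of miR-199-3p on fibroblast markers thus lay on matrix genes and Gsn, and without them the control held about 1 read, too few for a comparison with the other miRNAs. For miR-199a-5p the shares on the 9 genes could not be told from those of the other miRNAs at this depth (0.0146 to 0.435% and 0 to 0.205%).

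Markers of other cells took small shares of the reads of any miRNA, myofibre markers excepted. Myofibre markers took 2.76% and 3.80% of miR-199-3p reads, 3.29% and 4.24% of miR-199a-5p and 2.28% and 2.77% of miR-214-3p, against 19.7% and 22.5% of all other miRNAs. None of the 3 miRNAs had more than 1 read on the 8 endothelial markers or more than 2.03 on the 10 macrophage markers, where all other miRNAs had 0.0159% and 0.0287%, and 0.0632% and 0.0641%, of their reads. On the 7 markers of smooth muscle and pericytes none had more than 5.42 reads, beside 0.303% and 0.289% of all other miRNAs. On the 6 satellite cell markers miR-199-3p had 5.50 and 2.27 reads, or 0.170% (0.0682 to 0.404) and 0.0774% (0.00825 to 0.246), beside 0.0115% and 0.0106% of all other miRNAs. These were mostly on Sdc4, a syndecan (4.65 and 2.27). On the 10 tenocyte and Schwann cell markers miR-214-3p had 27.5 and 17.3 reads (1.19% and 0.675%), miR-199a-5p 17.8 and 8.61 (1.08% and 0.480%) and miR-199-3p 9.67 and 4.99 (0.299% and 0.170%), beside 0.117% and 0.0860% of all other miRNAs. The miR-214-3p reads there were nearly all on Thbs4, a thrombospondin of tendon and muscle (27.3 and 16.5), and Tnmd, tenomodulin, had 8.98 and 2.74 reads of miR-199a-5p. All 3 miRNAs had fewer reads on this list in the mimic, as had all other miRNAs (262.8 and 216.8), and the part of tendon tissue in the control values was not tested.

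Peaks were also divided by whether the miRNA led them, that is, had more reads there than any other miRNA. Of 61 shared peaks with at least 5 reads of miR-199-3p in both libraries, it was the leading miRNA of 34 in both, and 7 of those 34 lay on 5 matrix genes. For miR-214-3p the number was 30 of 44, with 5 on 4 matrix genes (Sparc, Timp2, Bgn and Thbs4). For miR-199a-5p it was 8 of 15, with 1 on a matrix gene (Fn1) and 1 on a sarcomere gene (Xirp2). Matrix genes here are those of the list of 74, which leaves out Cilp, Aspn and Prg4. The same share over peaks led by other miRNAs is not given here, so these counts do not set the 3 miRNAs apart. The median share of the miRNA in the peaks it led was 70.3% and 72.5% for miR-199-3p, 67.9% and 67.0% for miR-214-3p and 74.4% and 76.1% for miR-199a-5p. Of the 61 miR-199-3p peaks 6 lay on ribosomal RNA and 6 on mitochondrial RNA, and among those 12 it led only the peak of COX1, a subunit of cytochrome c oxidase. Of the 44 miR-214-3p peaks 5 were ribosomal and 1 mitochondrial, and of the 15 miR-199a-5p peaks 4 and 1.

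**Figure D4:**
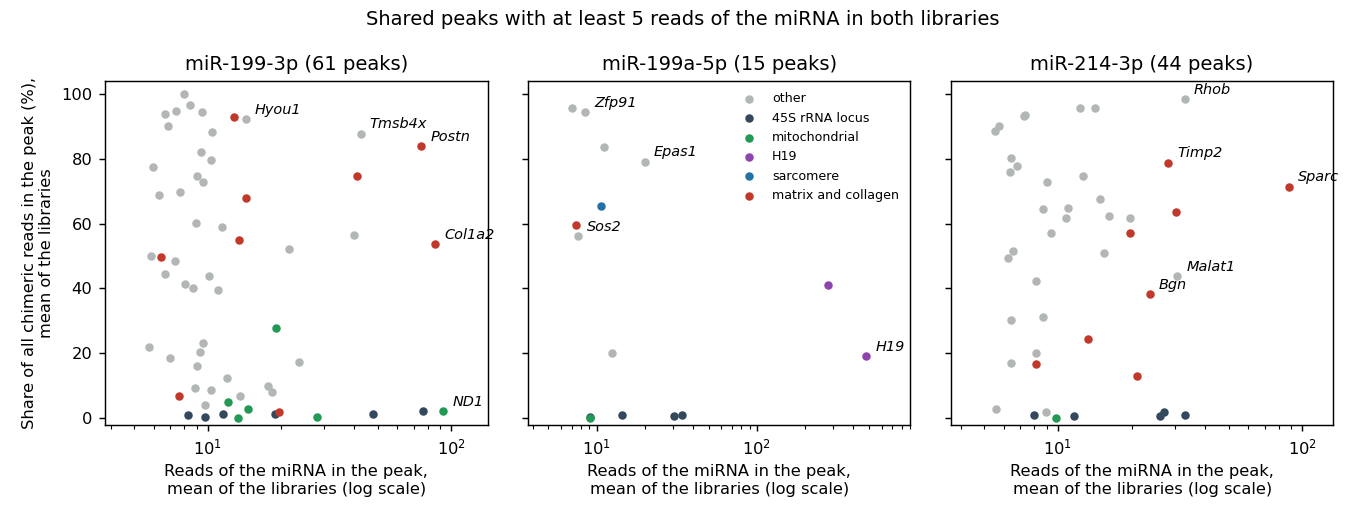
Share of all chimeric reads in a peak that belonged to the miRNA (y axis, percent, mean of both libraries) against its reads in the peak (x axis, log scale, mean of both libraries), 1 panel per miRNA and 1 point per shared peak with at least 5 reads in both libraries (61, 15 and 44 peaks). Points fall into peaks where the miRNA has most of the reads, such as Tmsb4x, Postn, Rhob and Epas1, and peaks near 0%, many of them ribosomal or mitochondrial.

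Genes with peaks of at least 3 reads in both libraries often held a seed match of the right miRNA. Of the 95 genes with a miR-199-3p peak of at least 3 reads in both libraries, 82 had a transcript in GENCODE M1, and ACTACTG was in the longest transcript of 45 of those (54.9%, 43.5 to 65.9), beside 14.6% of all 22611 genes and 21.3% of genes with such a peak of any miRNA. For miR-214-3p, CCTGCTG was in 44 of 65 genes (67.7%, 54.9 to 78.8), beside 44.97% and 55.3%. For miR-199a-5p, ACACTGG was in 14 of 18 genes (77.8%, 52.4 to 93.6), beside 25.2% and 32.7%, but only 78.3% of its 23 genes had a transcript, and that comparison is void for lack of annotation. Only the given strand of the transcript was searched. Counted per kb of transcript, ACTACTG occurred 0.140 times in miR-199-3p genes against 0.0603 in genes with peaks of any miRNA, and CCTGCTG 0.438 times in miR-214-3p genes against 0.245. The latter difference rested largely on collagens, whose coding repeats hold many CCTGCTG matches (21 in Col1a1, 15 in Col1a2 and 9 in Col3a1). Without collagen genes, left out after seeing the data, it was 0.282 against 0.239, and the share of miR-214-3p genes with a match was 63.8% against 55.1%. For ACTACTG the values without collagens were 0.142 against 0.0604. Between miR-199-3p and miR-214-3p, the match of the other was no more frequent as a share of genes than in genes with peaks of any miRNA. ACTACTG was in 13 of 65 miR-214-3p genes and CCTGCTG in 52.4% of miR-199-3p genes. ACACTGG was in 39.0% (28.4 to 50.4) of miR-199-3p genes and 30.8% (19.9 to 43.4) of miR-214-3p genes, beside 32.7%. Of the 18 miR-199a-5p genes, 38.9% (17.3 to 64.3) held ACTACTG and 61.1% (35.7 to 82.7) CCTGCTG, beside 21.3% and 55.3%. Per kb, however, CCTGCTG occurred 0.304 times in miR-199-3p genes, and 0.199 times without collagens.

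The position of the match was compared with the peak where both could be measured from the same end of the gene, a comparison added after these peaks had been seen. Of 10 such peaks led by miR-199-3p, 4 contained ACTACTG (interval 12.2% to 73.8%), namely those of Cpeb4, Elf4, Klf13 and Pnrc1, beside 8 of 653 peaks led by other miRNAs (1.23%). Of 15 led by miR-214-3p, 4 contained CCTGCTG (26.7%, 7.79 to 55.1), among them those of Ahdc1, Atp1b3 and Thbs4, beside 9 of 648 (1.39%). Of 3 led by miR-199a-5p, 1 contained ACACTGG, that of Sos2, beside 7 of 660 (1.06%). Several top targets had no match of the full seed in the longest transcript, among them Postn, Hyou1 and Aspn for miR-199-3p and Epas1 for miR-199a-5p. The absence of these letters says nothing about pairing of another kind or other transcripts. The Col1a2 transcript held 2 matches in its coding sequence and that of Tmsb4x held 1 in the 3′ UTR, 55 nt from the end. They are shown because both genes had large peaks led by miR-199-3p. The Tmsb4x peak lay 201 to 291 nt from the 3′ end of the gene, and by these ends does not hold the site. The Col1a2 sites were not compared in position with the Col1a2 peaks.
Col1a2, first: ctggtccctcaggtACTACTGg
Col1a2, second: gtggaacagcgattACTACTGg
Tmsb4x: atcaaagaatcagaACTACTGa

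The targets of the 3 miRNAs overlapped. miR-199-3p and miR-214-3p shared 153 of the genes found in both libraries, which was 29.1% of the miR-199-3p genes and 34.6% of the miR-214-3p genes. miR-199-3p and miR-199a-5p shared 80 (15.2% and 41.7%), and miR-199a-5p and miR-214-3p shared 62 (32.3% and 14.03%). Genes of all 3 numbered 47, and among them were Col1a1, Col1a2, Col3a1, Col6a3, Col12a1, Dcn, Lum, Fn1, Fstl1, Postn, Thbs1, Thbs4 and Tnmd, but also the abundant muscle transcripts Ttn, Neb, Acta1, Myh1 and Myh4. When peaks of at least 3 reads were required, 16 genes remained for miR-199-3p with miR-214-3p, and 3 for all 3 miRNAs, which were Col3a1, Rn18s-rs5 and mt-Rnr2. Gene overlap was not counted for pairs with other miRNAs. Whether the overlap is particular to these 3 miRNAs was therefore not tested at the level of genes.

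The overlap extended to the same peaks. Of the miR-199-3p peaks 407 of 1710 (23.8%, 21.8 to 25.9) and 371 of 1708 (21.7%) also held miR-199a-5p or miR-214-3p, beside 10.1% and 9.84% of all peaks. Among peaks with at least 3 reads the shares were 12.9% and 10.9%, beside 3.14% and 3.38%. miR-214-3p was in 16.7% and 15.5% of miR-199-3p peaks against 7.04% and 6.81% of all peaks, a ratio of 2.37 and 2.27. In the order of 43 partners by this ratio it was 3 and 8, and miR-199a-5p was 4 in both libraries with 2.33 and 2.46. miR-101c was first with 2.84 and 3.38, so that sharing a peak with miR-199-3p was not particular to the miRNAs of the same cluster. The first partners of miR-214-3p were miR-195a-5p (3.15 and 3.69) and miR-15a-5p (2.93 and 3.58), of the miR-15 and miR-16 family, and that of miR-199a-5p was miR-128-3p (4.52 and 3.88). Peaks with many reads hold many miRNAs, and the part of peak size in these ratios was not tested.

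The miR-1 mimic served as a contrast for these miRNAs, which it does not encode. Reads of miR-199-3p were 0.909 times the control in the mimic (0.864 to 0.956), those of miR-199a-5p 1.08 times (1.013 to 1.16) and those of miR-214-3p 1.11 times (1.05 to 1.18), beside 1.12 (1.11 to 1.12) for all other miRNAs and 1.31 (1.29 to 1.33) for miR-1a-3p. Over 44 miRNAs the median ratio was 1.08 and the range 0.778 to 1.33, and 42 of the 43 others had a higher ratio than miR-199-3p, 22 than miR-199a-5p and 16 than miR-214-3p. The miR-199-3p ratio thus lay near the bottom of this range and the other 2 in its middle. Relative to the total of the library, the ratio was 0.815 for miR-199-3p, 0.971 for miR-199a-5p and 0.996 for miR-214-3p. miR-199-3p also carried a different name in each list, and the part of that naming in its ratio was not tested.

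At the level of peaks, few differed by 2-fold. Of 110 miR-199-3p peaks with at least 3 reads in both libraries, 8 (7.27%) were 2-fold or more higher in the mimic and 11 (10.0%) 2-fold or more lower, beside 10.2% higher and 5.66% lower among 6418 such peaks of all miRNAs. Of 75 miR-214-3p peaks 6 (8%) were higher and 2 (2.67%) lower, and of 26 miR-199a-5p peaks 1 (3.85%) was higher and 3 (11.5%) lower. The median log2 ratio was −0.15 (−0.26 to 0.01) for miR-199-3p, 0.14 (0.01 to 0.29) for miR-214-3p and 0.19 (−0.57 to 0.42) for miR-199a-5p, beside 0.11 for all miRNAs. None of these shares was measured in more than 1 library per group, and the counts of peaks are small.

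The miR-199-3p peaks with the largest differences were of more than 1 kind. These peaks and those of the next paragraph were picked by their ratio, and the intervals do not allow for that choice. The ratios were not divided by library totals, and the reads of all miRNAs had a ratio of 1.12. Btg2, an antiproliferative gene induced early by stimuli, had 3.13 and 13.9 reads at chr1:134076008-134076022 (ratio 4.43, 1.30 to 25.3), where the other miRNAs together had 2.701 and 4.32 reads. Thbs1, thrombospondin 1, which can activate latent TGF-beta, had 28.5 and 3.41 reads (ratio 0.119, 0.0202 to 0.334) in a peak of which let-7c-5p had the most reads in the control, and where the other miRNAs together had a ratio of 0.307. The Thbs1 peak as listed was thus lower in the mimic for all miRNAs, while at Btg2 the other miRNAs had too few reads for a comparison. Peak bounds differed between libraries, with chr2:118126478-118126624 and chr2:118126542-118126604 at Thbs1 and a wider Btg2 peak in the mimic (chr1:134075985-134076042). Over the whole gene miR-199-3p had 28.5 and 7.09 reads on Thbs1 (ratio 0.249, 0.0893 to 0.563), beside 0.746 for all miRNAs. On Btg2 it had 6.57 and 14.4 (ratio 2.20, 0.755 to 5.86). The part of peak bounds in the peak ratios was not tested. The peak on Actb, cytoplasmic actin, had 28.8 and 8 reads of miR-199-3p (ratio 0.278, 0.109 to 0.618), with 0.857 for the other miRNAs in the peak. A smaller Postn peak, led by miR-16-5p, had 14.05 and 3.71 (ratio 0.264, 0.0685 to 0.910), with 0.885 for the other miRNAs. At these peaks the ratio of miR-199-3p was below that of the other miRNAs. Eln, elastin, had 4 and 11.8 reads, and Scd2, a desaturase of fatty acid synthesis, 3 and 7.90, both with intervals that include 1.

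For miR-214-3p the highest ratios were at Vim, the intermediate filament of mesenchymal cells (3 and 8.89 reads), Rtn3, a protein that shapes the endoplasmic reticulum (6.59 and 18.6), and Col1a1 (3.78 and 8.75). Of these only Rtn3 had an interval above 1 (ratio 2.83, 1.09 to 7.64), in a peak with only 2.81 and 4.88 reads of other miRNAs. That interval includes the ratio of 1.12 of all miRNAs. The lowest were at Cilp, a matrix protein of cartilage and fibrotic tissue (13.9 and 4.71), Thbs4 (27.3 and 12.2) and Taok1, a kinase (7.70 and 3.91). Of these only Thbs4 had an interval below 1 (ratio 0.446, 0.205 to 0.907), beside 0.482 for the other miRNAs in its peak. For miR-199a-5p the ratios were highest at Gm7809 (4.84 and 13.9), Mylpf, the fast myosin light chain (3.02 and 5.76), and Tbk1, a kinase of innate immune signalling (3.95 and 6.95), all with intervals that include 1. They were lowest at Podxl, the sialomucin podocalyxin, Myh9, nonmuscle myosin (9.65 and 4.37), and mt-Rnr2, a mitochondrial ribosomal RNA (12.4 and 5.75). Podxl had 18.4 and 4.46 reads (ratio 0.242, 0.0547 to 0.675), in a peak that held 1 and 0.787 reads of other miRNAs.

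Strong peaks present in only 1 library were rare. A miR-214-3p peak on Fn1 at chr1:71626067-71626118 held 20.97 reads in the control, out of 24.4 of all miRNAs, and no peak of any miRNA was listed there in the mimic. Over the whole of Fn1, miR-214-3p had 29.6 and 2.80 reads (ratio 0.0947, 0.0195 to 0.322), while all miRNAs had 1631 and 1391. A miR-199-3p peak on Gsn, gelsolin, held 10.9 reads in the control, and a miR-214-3p peak on Cilp 10.8 in the mimic. These were the peaks of 10 or more reads without an overlapping peak of the same miRNA in the other library.

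How often a peak was found again depended on its reads. Of the control peaks, 33.4% of those of miR-199-3p (571 of 1710), 27.2% of miR-199a-5p (197 of 725) and 31.9% of miR-214-3p (472 of 1481) overlapped a mimic peak of the same miRNA, beside 36.3% for all other miRNAs. Below 1 read the shares were 22.1%, 20.8% and 23.4%, and at 10 reads or more 97.7% (42 of 43), 100% (12 of 12) and 95.5% (21 of 22). Accordingly 526, 192 and 442 target genes were found in both libraries, and 95, 23 and 70 with peaks of at least 3 reads. A gene with less than about 3 reads in 1 library may be missed in the other at this depth.

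**Figure D5:**
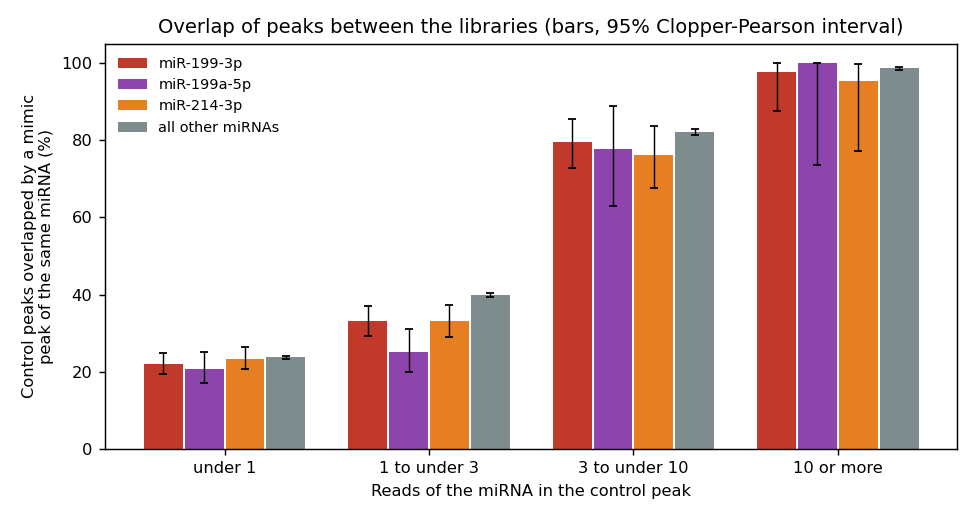
Share of control peaks overlapped by at least 1 nt by a mimic peak of the same miRNA (y axis, percent) by the reads of the control peak (x axis, 4 bins), with bars for the exact 95% interval. The shares run from 20.8% to 23.7% below 1 read to between 95.5% and 100% at 10 reads or more in all 4 series, the last of which is all other miRNAs.

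Genes of TGF-beta signalling, which drives matrix synthesis in fibroblasts, were covered about as much as by other miRNAs for miR-199-3p and more for miR-214-3p in the mimic. Of a list of 34 genes, miR-199-3p had peaks on 14 and 8 (3 in both libraries) with 18.8 and 8.09 reads, miR-214-3p on 11 and 10 (6 in both) with 20.1 and 24.0, and miR-199a-5p on 3 and 5 (1 in both) with 3.71 and 6.33. The receptor gene Tgfbr2 had 3.88 and 1.41 miR-199-3p reads and the signal transducer Smad3 2.28 and 1. Of miR-214-3p, the receptor Acvr1b had 8.53 and 0.483, the procollagen protease Bmp1 2 and 7, and the co-receptor Tgfbr3 2.10 and 4.91. As a share of reads the list had 0.582% (0.355 to 0.917) and 0.276% (0.118 to 0.536) for miR-199-3p and 0.871% (0.529 to 1.33) and 0.936% (0.600 to 1.39) for miR-214-3p, beside 0.546% and 0.415% for all other miRNAs. On a list of 34 genes of muscle growth pathways the shares were 0.282% and 0.309% for miR-199-3p, 0.389% and 0.136% for miR-199a-5p and 0.270% and 0.189% for miR-214-3p, beside 0.591% and 0.515% for all other miRNAs. Each of the 3 had fewer than 10 reads there, among them 2.82 and 2.85 of miR-214-3p on Igf1, the growth factor IGF-1.

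Targets known from textbooks took larger shares of the reads of their miRNA than of all other miRNAs, on few genes. For miR-199-3p the list held 0.757% (0.477 to 1.104) and 0.855% (0.552 to 1.25) of its reads, beside 0.0556% and 0.0507%. For miR-214-3p it held 0.558% (0.300 to 0.960) and 0.715% (0.416 to 1.106), beside 0.256% and 0.268%, and for miR-199a-5p 0.275% (0.0980 to 0.703) and 0.358% (0.123 to 0.726), beside 0.121% and 0.127%. The intervals of miR-199a-5p reach the values of the other miRNAs. The larger shares were not particular to the listed miRNA. On the miR-214-3p list miR-199-3p had 0.718% and 0.681%, and on the miR-199a-5p list 0.298% and 0.0329%. On the miR-199-3p list miR-214-3p had 0.254% and 0.298%, which was below miR-199-3p itself. For miR-199-3p, 2 of 8 had peaks in both libraries, namely Cd44 and Met (2.75 and 2.65), the receptor of hepatocyte growth factor. For Mtor, the growth kinase, 0 and 1.59 reads were found, and for Ptgs2, cyclooxygenase 2, 2.34 and 0. Cav2, Itga3 and Yap1 had none. For miR-199a-5p, 2 of 13 were in both, which were Lin7c, a scaffold protein (2.38 and 4.01), and Hif1a (0.708 and 2.41), and 9 had none. For miR-214-3p, 4 of 13 were in both, Nras, Slc8a1, the sodium-calcium exchanger (3.65 and 2.65), Qk and Ctnnb1, and 8 had none. Nras, a Ras GTPase, had 5.66 and 6.11 reads, and Ctnnb1, beta-catenin, 0.606 and 8.08. Only Cd44 had more than 10 reads in each library, and a listed gene that the tissue expresses little could not be seen here.

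The loci that make these miRNAs were nearly free of their peaks. On Dnm3os, a peak at chr1:162217840-162217867 covered the mature miR-199a-5p sequence and held 6 and 8 reads of all miRNAs, of which 2 and 1 were of miR-199-3p, the opposite arm of the hairpin. Another at chr1:162223435-162223465 covered mature miR-214-3p and held 11.2 and 10.0 reads, with 5 and 2 of miR-214-5p and 1.25 and 1 of miR-214-3p. A control peak of 6.50 reads over miR-199a-1 at chr9:21496537-21496559 held 0.923 of miR-199-3p. In these peaks the miRNA sequence itself stood as the target, and pairing of arms, of precursors or of reads cannot be told apart from them.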

How the data were processed

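Ago2 chimeric eCLIP libraries of overloaded plantaris were used, 1 per group. The deposited peak lists hold, per peak and miRNA, an estimated count of chimeric reads, which is fractional. Why it is fractional is not given in the sources used here. The submitters' processing notes name UMI-tools 1.1.1, cutadapt 3.2, STAR 2.7.7a, Bowtie 1.2.3, HOMER 4.11 and mm10, while the methods name mm9. Positions fitted GRCm38 genes, with 97.5% and 97.3% of the lines on a gene of the same strand and 5.08% with strands turned. The methods describe a primer step for miR-1, and whether it enriched reads in these libraries is not stated.

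Reads were summed per miRNA, gene and list. Of 49993 RefSeq genes, the strand was known for 27024 from promoters, 9312 by GENCODE name and 1072 from miRNA tables, and unknown for 12585. Genes of unknown strand were used only where no gene of the same strand overlapped. This applied to 20 genes and to 1.23% and 1.45% of the lines of these miRNAs. A peak was shared where peaks of the same miRNA overlapped by 1 nt. Intervals were exact Clopper-Pearson, Poisson or conditional binomial intervals on rounded reads (Python 3.11.15, numpy 2.4.6, pandas 2.3.3, scipy 1.17.1, matplotlib 3.10.9), tested on simulated data. Members and gene lists were chosen with earlier results of these data known. Genes named were the 10 with the most reads per miRNA, the 5 largest peaks, the 3 highest and 3 lowest shared peaks, host genes and textbook targets, and others were chosen after their values were seen. Alternatives were read minimums, overlap rules, and leaving out loci. Some items are not reported here.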

Additional observations from a re-analysis of the deposited data

How the results depend on the processing

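No paired analysis was possible because only 1 library per group was made. Divided by library totals, the ratio of reads was 0.815 for miR-199-3p and turned below 1 for miR-199a-5p (0.971) and miR-214-3p (0.996). Without H19 it also turned for miR-199a-5p (0.979). Counted as peaks, it was 0.999 for miR-199-3p and 1.02 for miR-214-3p. The overlap of control peaks with mimic peaks was 83.3%, 82.5% and 79.3% (miR-199-3p, miR-199a-5p, miR-214-3p) with at least 3 reads, and 26.6%, 22.3% and 25.9% with 50% reciprocal overlap. Genes found in both libraries numbered 95, 23 and 70 with at least 3 reads per peak, and 119, 31 and 103 with at least 2 peaks per gene. The matrix share (control and mimic) with at least 3 reads was 19.9% and 18.6% for miR-199-3p, 3.07% and 1.82% for miR-199a-5p and 27.1% and 21.9% for miR-214-3p. As a share of peaks it was 6.67% and 6.62%, 10.3% and 6.66%, and 8.71% and 6.92%, beside 4.18% and 3.63% for all other miRNAs. For miR-199-3p and miR-214-3p this was a smaller difference than in reads. Values of all other miRNAs at the remaining settings are not given. Without mitochondrial and ribosomal RNA the matrix share was 16.1% and 15.7% for miR-199-3p. It was 9.32% and 5.93% for miR-199a-5p without H19, 11.1% and 6.88% without H19, mitochondrial and ribosomal RNA (added after seeing the data), and 11.9% and 9.55% for miR-214-3p without Sparc. The share of miR-199-3p peaks with another of these miRNAs was 12.9% and 10.9% with at least 3 reads. Divided by library totals (also added later), 5 miR-199-3p peaks were 2-fold higher and 6 miR-199a-5p peaks 2-fold lower. The cause of these moves was not tested, apart from the loci left out. The other 25 of 67 values stayed within 1.5 times or the counting interval.

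Exons, UTRs and sequence by peak position in GRCm38 were not used here, so the planned share of peaks that hold a seed match was not run. With 1 library per group no replicate was left out. Most peaks below 3 reads were found in 1 library only, and this depth does not resolve differences at such peaks.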
